A study of Mus musculus with 4 samples.

Results

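In pachytene spermatocytes treated with BMH-21, 4425 stretches of autosomal chromatin away from gene ends were called accessible in both treated libraries and in neither vehicle control. These BMH-21-only distal regions were selected by those calls: the peak lists of 4 ATAC-seq libraries were merged wherever peaks shared at least 1 bp, and a merged region was kept if it lay on chromosomes 1 to 19, met a peak in both BMH-21 lists and in neither mock list, and had its midpoint more than 1 kb from either end of every annotated gene. They made up 4.37% of the 101223 autosomal regions that far from gene ends (distal regions) and came from 155908 merged regions in the whole genome. Spermatocytes in the pachytene stage had been isolated from mouse testes and cultured for 12 h with 2.5 µM BMH-21 (2 libraries) or with the DMSO vehicle alone (2 libraries, called mock here). All 4 libraries were thus of cultured germ cells of the same stage; strain, genotype and age were not given in the labels, and replicates were called biological without saying whether each came from its own animals. The spread between libraries may therefore be partly technical.

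ATAC-seq maps open chromatin: a transposase cuts where nucleosomes leave DNA exposed, and a peak is a place where the sequenced fragments pile up above their surroundings. Open chromatin far from gene ends often marks enhancers and other elements that act on genes at a distance. Pachytene is the long stage of meiotic prophase in which homologous chromosomes are fully paired and recombine. BMH-21 is a DNA intercalator that inhibits RNA polymerase I, the enzyme that transcribes ribosomal RNA genes in the nucleolus.

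The BMH-21 lists had 51234 and 55459 peaks, fewer than the 109230 and 117905 in mock. On autosomes away from gene ends there were 68467 and 74884 mock peaks against 20009 and 22384 BMH-21 peaks, which is 71676 ± 4538 against 21197 ± 1679 (mean ± SD, n = 2 each), a ratio of 0.296. The groups did not overlap, and the two-sided exact permutation p was 0.33, the smallest that 2 libraries against 2 allow. Peaks unique to mock were the larger class: 38660 distal regions (38.2%) were in both mock lists and neither BMH-21 list, and 8323 were in all 4. Read against those numbers, the BMH-21-only regions were 30.9% of the 14330 distal regions held by both BMH-21 lists (exact 95% interval 30.1 to 31.6%, counting error only), whereas mock-only regions were 75.9% of the 50962 held by both mock lists. At gene ends, 971 of 13406 autosomal regions held by both BMH-21 lists were absent from mock, 7.24% (6.81 to 7.69%). The count of 4425 depended on which library was used: it was 8665 without BMH-21 replicate 1, 7268 without BMH-21 replicate 2, and 5067 and 5420 without mock replicates 1 and 2. It was 7060 when every list was shortened to the length of the shortest, which removed weak mock peaks.

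Markers of pachytene spermatocytes had gene-end peaks in every library. Of 14 pachytene spermatocyte genes, 14, 14, 14 and 13 had a peak at a gene end in mock 1, mock 2, BMH-21 1 and BMH-21 2. Fewer genes marking other cell types had such a peak in the BMH-21 libraries than in mock: 8, 9, 5 and 4 of 10 Sertoli genes, 7, 7, 4 and 4 of 10 Leydig and peritubular genes, 11, 10, 6 and 8 of 12 spermatogonial genes, 6, 6, 4 and 5 of 12 round spermatid genes and 6, 7, 1 and 1 of 10 leukocyte genes. The leukocyte genes Ptprc, Adgre1 and Lyz2 had no gene-end peak in any list. Over all 21887 protein-coding genes the counts were 15335, 15479, 13349 and 13450. The part of such cells in the BMH-21-only regions was not tested.

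Although the regions lay more than 1 kb from the outer ends of genes, 36 of them (0.814%) overlapped a window around an internal or alternative transcription start in the RefSeq promoter table (mouse build GRCm38.p6, 250 bases before to 50 after each start). That share was 14.1% in distal regions of all 4 lists and 0.779% in mock-only ones. The 250 bases before the start are printed for the 5 strongest regions whose summits, the highest points of a peak, both fell in such a window. These are the members for which a sequence was at hand, and they were picked after their values were seen. Each runs 5′ to 3′ in the direction of transcription, with matches to the motifs searched in capitals.
6720489N17Rik, chr13:62624183-62624432, minus strand: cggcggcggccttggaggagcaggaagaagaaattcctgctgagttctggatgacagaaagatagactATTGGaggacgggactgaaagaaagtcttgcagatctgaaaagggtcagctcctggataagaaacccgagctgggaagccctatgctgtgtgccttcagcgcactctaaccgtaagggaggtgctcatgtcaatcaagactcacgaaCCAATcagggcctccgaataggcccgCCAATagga
Elavl2, chr4:91376497-91376746, minus strand: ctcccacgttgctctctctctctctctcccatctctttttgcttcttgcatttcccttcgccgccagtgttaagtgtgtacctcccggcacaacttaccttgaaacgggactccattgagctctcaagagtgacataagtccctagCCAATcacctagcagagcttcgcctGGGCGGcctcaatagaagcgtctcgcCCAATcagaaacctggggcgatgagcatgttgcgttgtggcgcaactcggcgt
Zfp976, chr7:42642605-42642854, minus strand: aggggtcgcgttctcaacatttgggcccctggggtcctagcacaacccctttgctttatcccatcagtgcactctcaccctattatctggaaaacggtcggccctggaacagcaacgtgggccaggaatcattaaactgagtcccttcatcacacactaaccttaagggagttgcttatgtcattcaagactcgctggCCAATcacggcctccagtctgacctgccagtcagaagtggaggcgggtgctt
Gm35481, chr2:171639013-171639262, minus strand: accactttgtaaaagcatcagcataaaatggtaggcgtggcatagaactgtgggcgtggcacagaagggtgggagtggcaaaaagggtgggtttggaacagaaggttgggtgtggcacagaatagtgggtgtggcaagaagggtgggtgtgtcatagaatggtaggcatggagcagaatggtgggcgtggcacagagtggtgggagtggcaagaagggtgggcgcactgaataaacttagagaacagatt
Gm30107, chr8:114013799-114014048, minus strand: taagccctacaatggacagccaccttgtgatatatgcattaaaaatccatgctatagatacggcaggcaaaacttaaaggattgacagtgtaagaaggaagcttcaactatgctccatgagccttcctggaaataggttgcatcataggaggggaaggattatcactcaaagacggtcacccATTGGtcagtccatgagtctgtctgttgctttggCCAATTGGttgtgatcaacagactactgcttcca

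The motifs were the GC box (GGGCGG), the CCAAT box (CCAAT), the TATA box (TATAAA), the AP-1 site (TGANTCA) and the CRE (TGACGTCA), each sought on both strands, with overlapping matches kept. Elavl2 encodes a neuronal RNA-binding protein, and its window held 1 GC box and 2 CCAAT boxes. Peaks there reached a fold of 10.3 in BMH-21 1 and 11.9 in BMH-21 2, where fold is the authors' enrichment of fragments at the summit over the local background. The windows of the zinc finger gene Zfp976 (fold 8.06 and 8.21) and of 6720489N17Rik (10.6 and 13.1) held 1 and 3 CCAAT boxes. Gm30107 (7.70 and 8.46) held 3, of which a pair overlapped, and Gm35481 (8.25 and 8.02) held no match.

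Over all 39 windows that BMH-21-only regions touched, 16 held a CCAAT box (41.0%, against 33.7% of the 31365 autosomal windows in the table), and 6 held a GC box (15.4% against 33.0%). Windows under regions of all 4 lists held a GC box in 62.5% and a CCAAT box in 30.6%, and those under mock-only regions in 36.7% and 26%. The AP-1 letters were in 3 of the 39 (7.69%, against 6.77% of all autosomal windows and 10.1% under mock-only regions), the CRE in 1 (2.56% against 1.58%) and the TATA box in 0 (12.4% of all). The median GC content of the 39 windows was 52.4%, the same as over all autosomal windows, and lower than the 62.4% under regions of all 4 lists; their median CpG count was 6 against 16, and 5 under mock-only regions, whose GC content was 58%. A match describes the letters only. No region overlapped any of the 1005 miRNA hairpins in the RefSeq table.

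Distal regions were also chosen with 1 BMH-21 and 1 mock list and looked up in the lists left out of that choice. Distal regions present in BMH-21 1 and absent from mock 1 numbered 8533, of which 63.2% (62.1 to 64.2%) were in BMH-21 2 and 15.6% (14.9 to 16.4%) in mock 2. With BMH-21 1 and mock 2 as the choosing pair, the shares were 62.0% and 11.4% of 8126; with BMH-21 2 and mock 1 they were 54.2% and 15.1% of 9946; with BMH-21 2 and mock 2 they were 53.7% and 10.0% of 9390. In all 4 choices the unused BMH-21 list held the regions more often than the unused mock list did. The reverse choice recurred more: regions of a mock list missing from a BMH-21 list were in the other mock list in 65.6 to 72.7% and in the other BMH-21 list in 3.42 to 4.56%. The 4 choices are not independent, because they share libraries and regions merged from all 4 lists. The same 5391 regions were found in the other BMH-21 list in both choices with mock 1, and the same 5041 in both with mock 2. Both sets include the 4425 BMH-21-only regions. Regions are not replicates, so no p is given.

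**Figure D1:**
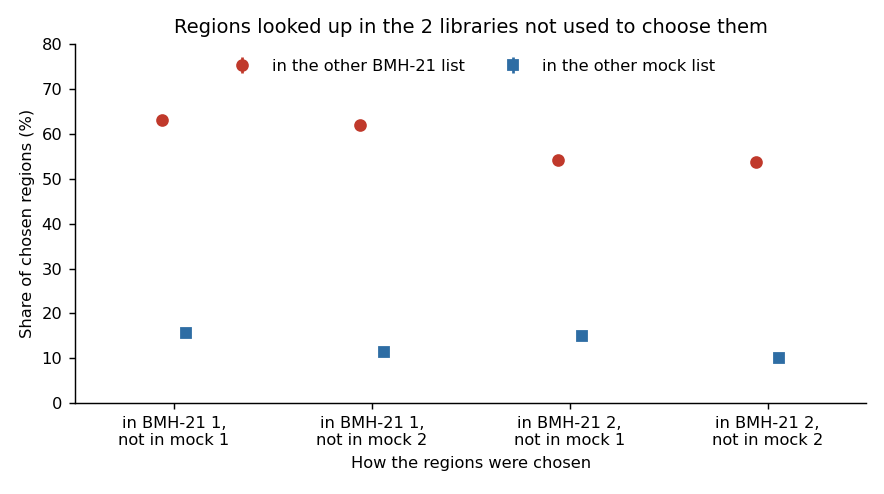
Distal autosomal regions chosen with 1 BMH-21 list (present) and 1 mock list (absent), looked up in the libraries not used. The y axis is the percent of chosen regions with a peak there, with exact 95% intervals smaller than the symbols; circles (other BMH-21 list) lie between 53.7 and 63.2%, squares (other mock list) between 10.0 and 15.6%.

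Summits of the BMH-21 libraries lay close together within these regions, where the rule already requires overlapping peaks of both. Summits in a BMH-21-only region lay a median of 16 bp apart between the libraries, and 79.3% were within 50 bp and 90.3% within 100 bp. In regions of all 4 lists the same 2 libraries had summits a median of 20 bp apart, with 71.8% within 50 bp. Peaks there were wider, with medians of 500 and 485 bp against 296 and 298 bp, and wider peaks allow larger distances. The folds of a region in the 2 libraries differed by a median ratio of 1.13, and the SD of their log2 difference was 0.26. Across the 4425 regions log2 fold correlated at r = 0.850 between these libraries, and at r = 0.929 across the 8323 regions of all 4 lists, which span a wider range.

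The peaks were of middling strength, not the faintest in their lists. The median fold was 4.95 in BMH-21 1 (5th to 95th percentile 3.12 to 8.98) and 5.33 in BMH-21 2 (3.25 to 9.54). Ranked by fold within their list, the median region stood at percentile 58.7 and 63.5, and regions of all 4 lists stood at 65.8 and 68.6 (median fold 5.42 and 5.71). The median −log10 q, the authors' peak significance, was 11.6 and 13.1, and 5.65% and 5.20% of the regions had a value under 5. Because these measures come from the calls that chose the regions, they are descriptions.

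The number of fragments over each summit could be recovered from the deposited fold and −log10 p. It was a median of 32 in each BMH-21 library (5th to 95th percentile 20 to 67 and 20 to 66), fewer than the 45 and 46 at regions of all 4 lists and close to the 34 in each mock library at mock-only regions. The local background beneath the BMH-21-only summits was also lower, a median of 4.82 and 4.50 fragments against 7.02 and 6.68, and it equalled the genome-wide background in 42.2% and 41.3% of them against 18.5% and 18%. At mock-only regions that share was 31.0% in mock 1 and 31.1% in mock 2. The genome-wide background was 4.54 and 4.31 fragments in mock and 4.46 and 4.11 in BMH-21, and the lowest summit listed over it was 14 and 13 fragments in mock and 14 and 13 in BMH-21. The mock lists give no value where no peak was called, so the mock signal at these regions is not known beyond its absence from the list. The nearest peak in either mock list was a median of 3660 bp away, and 936 regions (21.2%) had one within 1 kb.

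BMH-21-only distal regions were narrow. Their merged width had a median of 345 bp (quartiles 281 to 492, range 201 to 1399), against 768 bp (533 to 1066) for distal regions of all 4 lists and 418 bp (317 to 582) for mock-only ones. A merged region grows with the number of lists that enter it, so peaks of 1 list are the closer comparison. Peaks in these regions had a median width of 296 bp in BMH-21 1 and 298 bp in BMH-21 2, whereas peaks of the same 2 lists in regions of all 4 measured 500 and 485 bp. Mock-only regions were nearer, with median peak widths of 348 bp in mock 1 and 355 bp in mock 2. Under 300 bp lay 34.3% of the BMH-21-only regions, 1.99% of those in all 4 lists and 19.8% of mock-only ones, and 1.29%, 29.7% and 4.59% reached 1000 bp.

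Narrowness went with every level of strength. In 4 classes of fold percentile from the weakest to the strongest, the median peak widths of BMH-21-only regions were 288, 276, 285 and 385 bp, over 422, 1055, 1872 and 1076 regions. Regions of all 4 lists measured 342, 355, 476 and 684 bp in the same classes. The gap was smallest in the weakest class and largest in the strongest.

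**Figure D2:**
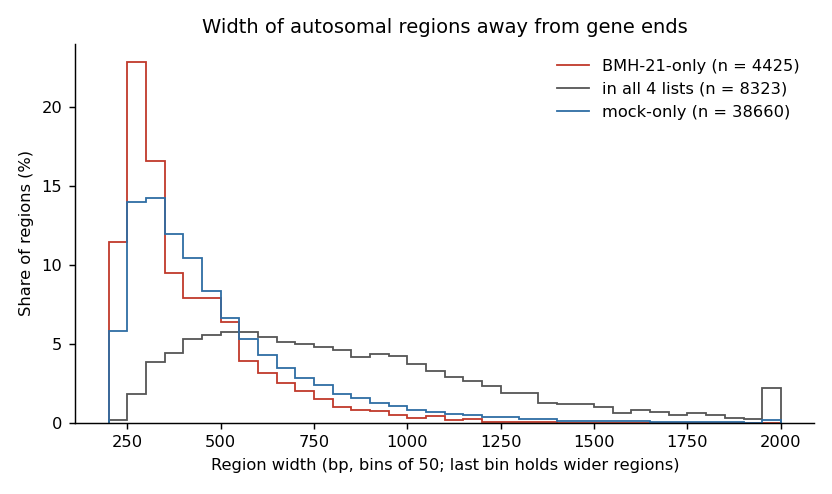
Width of merged autosomal regions away from gene ends, in bins of 50 bp (x axis) against the percent of regions in each class (y axis). BMH-21-only regions (median 345 bp) pile up at 250 to 350 bp, mock-only regions (418 bp) spread a little wider, and regions of all 4 lists (768 bp) reach far beyond.

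The strongest regions, ranked by mean fold percentile over the BMH-21 lists, lay inside protein-coding genes in 7 of 10 cases. Among all BMH-21-only distal regions that share was 45.4%, and 10 are too few to compare with it. At chr13:58732637-58733192, in the authors' mm10 coordinates, 135 and 141 fragments gave folds of 16.3 and 15.7. This region lay between genes, 73.6 kb from Ntrk2, the receptor for brain-derived neurotrophic factor, and mock peaks stood 1.68 and 1.63 kb away. At chr12:53293893-53294309, inside Npas3, a neuronal transcription factor gene, the folds were 14.9 and 17.4 (89 and 88 fragments), and no mock peak was nearer than 35.9 kb. Both BMH-21 summits there were 1 bp apart.

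Inside Mtus2, a microtubule-associated protein gene, the region chr5:148191404-148191858 had folds of 16.4 and 15.3. Epb41l3 encodes a protein that ties membranes to the cytoskeleton, and it held a 949 bp region, chr17:69225636-69226584, with folds of 14.6 and 15.6. Inside Sox5, an HMG-box transcription factor gene, chr6:144492660-144493161 reached 15.2 and 14.5. Rph3a, whose product binds Rab3 on synaptic vesicles, held chr5:120988247-120988804, at 14.4 and 14.8. Lrrk2, a kinase gene, held chr15:91735019-91735861 at 14.3 and 14.1, and Tjp1, which encodes the tight junction protein ZO-1, held chr7:65490523-65491178 at 14.2 and 14.1. The other two lay between genes: chr2:5760028-5761040, 33.8 kb from Cdc123, had folds of 13.4 and 16.0, and chr13:47423566-47423946, 176 kb from Rnf144b, had 13.6 and 14.9. A high rank in both lists was the condition for this choice, so the likeness of the paired folds is part of it.

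None of the 3 widest regions was among the 10 strongest. The widest, 1399 bp at chr9:111522217-111523615, lay 33.3 kb from Dclk3 with folds of 7.42 and 8.23. The next, 1332 bp at chr11:63230627-63231958 and 71.7 kb from the myelin gene Pmp22, had folds of 4.39 and 3.93, and its summits in the 2 libraries were 583 bp apart. A region of 1306 bp at chr4:106225587-106226892, 89.7 kb from Usp24, had folds of 7.59 and 9.02 and summits 1 bp apart. All 3 lay between genes.

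At the weak end, the region in Eef2, the translation elongation factor gene, had folds of 1.77 and 1.70: 77 fragments in each library over a background of 43.1 and 44.8. It was 1.08 kb from a gene end, and mock peaks lay 0.389 and 0.381 kb away. A region in Sfi1, a centrosome protein gene, had folds of 1.84 and 1.83 from 130 and 122 fragments, over a background of 70.1 and 66.3, with mock peaks 0.954 and 0.939 kb away. Both had many fragments over a high background, and they were named after their values were seen.

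Regions on either side of the 1 kb limit had overlapping folds. Just inside it were chr8:105966985-105967315, 1001 bp from an end of Slc12a4 (fold 4.06 and 4.33), chr8:41064394-41065131, 1004.5 bp from the lncRNA gene Gm16193 (5.86 and 6.84), and chr7:98120337-98120717, 1005 bp from Myo7a (4.17 and 5.03). Just outside were regions 999.5 bp from the lncRNA gene Gm30470 (10.0 and 9.63), 999 bp from Ebf1 (9.35 and 7.09) and 994 bp from Thop1 (2.26 and 2.60).

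BMH-21-only distal regions lay inside genes less often than distal regions of all 4 lists or mock-only ones. A gene covered the midpoint of 2406 of the 4425, 54.4% (52.9 to 55.8%), compared with 69.8% (68.8 to 70.8%) of regions in all 4 lists and 69.4% of mock-only regions. The share was lower than that of all-4 regions on 19 of 19 autosomes. Protein-coding genes held 2008 of the regions (45.4%, against 63.8% and 63.7%). Another 398 (8.99%) were only in genes of other kinds, of which 380 were in lncRNA genes, and 2019 (45.6%) lay between genes. In both classes the stronger regions were in genes less often: 51.5% of BMH-21-only regions above the 50th fold percentile against 60.2% below it, and 67.0% against 75.6% in all 4 lists.

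Compared with regions of all 4 lists, they also lay farther from genes and had fewer genes around them, while mock-only regions were closer to them in these measures. Of the BMH-21-only regions 17.8% were over 50 kb from any protein-coding gene, against 8.89% of regions in all 4 lists and 12.8% of mock-only ones, and 4.52%, 2.11% and 4.66% were over 200 kb away. Those outside protein-coding genes were a median of 25.6 kb from one, against 18.6 and 26.1 kb. The nearest end of any gene was a median of 10.0 kb away, against 6.95 and 9.67 kb, and 28.0% lay within 5 kb of one, against 40.5% and 30.0%. Within 500 kb either side there was a median of 10 protein-coding genes, against 13 and 12. In distance to gene ends the BMH-21-only and mock-only regions were close to each other, and both were farther out than regions of all 4 lists.

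**Figure D3:**
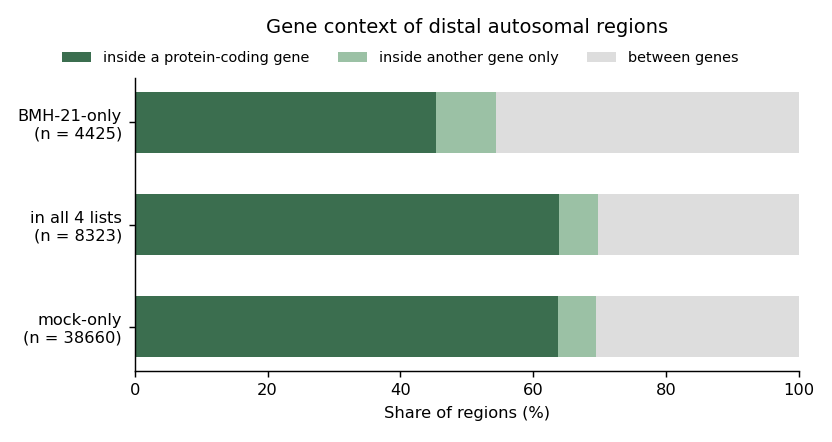
Percent of distal autosomal regions (x axis) with their midpoint inside a protein-coding gene, inside another kind of gene only, or between genes, for the 3 classes on the y axis. The dark bar ends at 45.4% for BMH-21-only regions and near 64% for both other classes.

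Neighbouring distal regions were BMH-21-only together more often than their overall share. Taken in order along each autosome, the region after a BMH-21-only one was BMH-21-only in 376 of 4425 cases, 8.50% (7.69 to 9.36%), against 4.18% (4.06 to 4.31%) after any other region and a share of 4.37% overall. Among regions held by both BMH-21 lists the difference was smaller: 35.5% (34.1 to 36.9%) after a BMH-21-only region and 28.8% (27.9 to 29.7%) after a region that a mock list also held, with 30.9% overall. Adjacent regions share their surroundings and are not independent, so the intervals cover counting error only. The value of 8.50% became 20.4%, beside a share of 14.9%, when the lists were shortened to equal length.

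Most of the regions nevertheless stood alone. The nearest other BMH-21-only region was a median of 73.8 kb away (quartiles 25.5 to 204 kb), 12.6% had one within 10 kb and 224 had one within 1 kb. Joined across gaps of at most 50 kb, the 4425 regions formed 3391 runs: 2655 of a single region, 554 of 2, 109 of 3, 46 of 4, 19 of 5 and 8 larger ones. The 73 runs of 4 or more held 335 regions.

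The largest run, of 9 regions over 172 kb at chr2:165742195-165914665, spanned the end of Eya2, a transcription coactivator and phosphatase gene, and all of Zmynd8, which encodes a reader of histone marks. In BMH-21 1 the folds were 3.65, 4.09, 5.28, 6.41, 4.76, 12.3, 3.66, 7.51 and 4.95 from left to right, and in BMH-21 2 they were 3.13, 4.13, 5.70, 6.84, 6.65, 10.7, 3.32, 8.78 and 8.02. The libraries agreed on the strongest, a 903 bp region at chr2:165861377-165862279 inside Zmynd8. The same span held 25 distal regions in all, 9 of them mock-only and 2 in all 4 lists. BMH-21-only and mock-only regions were thus interleaved there.

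**Figure D4:**
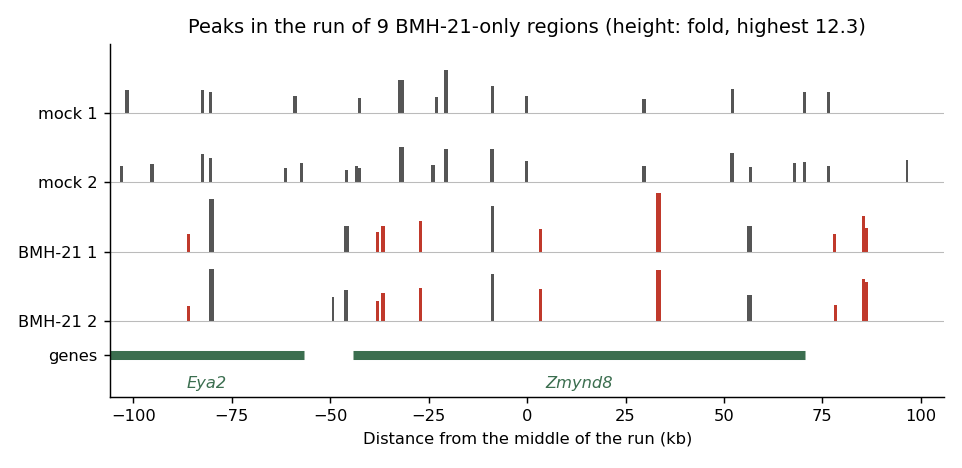
Peaks of each library (rows) over the run of 9 BMH-21-only regions around Zmynd8, against distance from the middle of the run in kb. Bar height is the fold, red bars lie in BMH-21-only regions and grey bars elsewhere, and green bars are genes; by the rule each red peak is in both BMH-21 rows and no mock row, and the span also holds 9 mock-only regions.

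The second run held 8 regions in the 140 kb at chr5:119966938-120106805, all between the genes Tbx5, a heart and limb T-box transcription factor, and Rbm19, a nucleolar RNA-binding protein. Its folds were 4.31 to 6.73 in BMH-21 1 and 4.89 to 8.60 in BMH-21 2, and its span held 16 distal regions, 3 of them mock-only. A run of 7 over 104 kb at chr5:125572006-125675988 lay wholly inside Tmem132b, a transmembrane protein gene. Its folds were 10.7, 7.51, 6.17, 3.99, 5.50, 10.1 and 8.38 in BMH-21 1 and 11.4, 7.43, 5.02, 4.07, 6.45, 12.1 and 8.06 in BMH-21 2; 3 mock-only regions and none in all 4 lists shared its span. The order of strength was nearly the same in both libraries. A run of 7 over 157 kb around the calcium channel subunit gene Cacna2d2 (chr9:107357679-107514912) was weaker, with median folds of 3.91 and 4.58, and stood among 13 mock-only regions. The fifth run had 7 regions in the 94.3 kb at chr2:168394396-168488676, of which 5 were outside and 2 inside Nfatc2, a calcium-regulated transcription factor gene, with 8 mock-only regions in the span.

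The regions were found on every autosome. Chromosome 5 had most, 413, or 2.72 per Mb, and chromosome 3 had the lowest density, 0.994 per Mb, with a mean of 1.80 ± 0.47 per Mb (SD over 19 chromosomes). Chromosome 5 also held more distal regions of any kind, 50.1 per Mb, than chromosome 3, with 28.6. As a share of regions held by both BMH-21 lists, BMH-21-only regions ranged from 27.3% on chromosome 19 (23.1 to 31.8%) to 33.9% on chromosome 10 (30.6 to 37.3%), with a mean of 30.6 ± 2.27%. The intervals of these extremes overlapped. Median width varied little, from 333.5 bp on chromosome 17 to 373 bp on chromosome 3, and the share inside genes ran from 45.9% on chromosome 3 to 63.9% on chromosome 7.

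**Figure D5:**
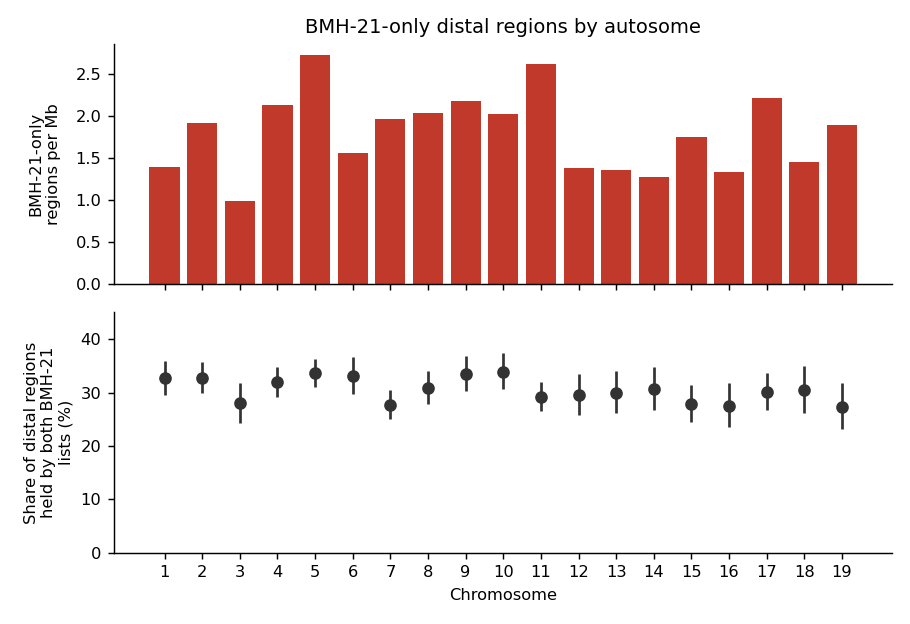
BMH-21-only distal regions per Mb (upper y axis, bars from 0) and as a percent of distal regions held by both BMH-21 lists (lower y axis, points with exact 95% intervals) on each autosome (x axis). Density runs from 0.994 to 2.72 per Mb, while the share stays between 27.3 and 33.9%.

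Shares in smaller windows rest on fewer regions and vary more through counting alone. In 204 windows of 10 Mb with at least 20 regions held by both BMH-21 lists, it had quartiles of 25.3 and 35.7% around a median of 30.7%. The highest and lowest were 14 of 27 (51.9%) at 60 to 70 Mb of chromosome 5 and 20 of 39 (51.3%) at 40 to 50 Mb of chromosome 14, against 1 of 20 (5%) at 30 to 40 Mb of chromosome 10. With each autosome divided into 5 equal parts from its start, the centromere end in mouse, the share was 26.3% (24.3 to 28.3%) in the first and 33.2, 30.3, 31.0 and 31.8% in the others. The last of the 5 parts held 36.8% of all BMH-21-only regions, near the 34.8% of regions in all 4 lists.

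As nearest protein-coding gene, 3066 of 20665 autosomal genes (14.8%) were linked to at least 1 BMH-21-only region. Most of them, 2245, were linked to exactly 1, and 59 to 5 or more. The gene with most was Ajap1, an adherens junction protein gene, with 14. Nearest position does not show which gene a region acts on.

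Counting only regions inside the gene, Camta1, a calmodulin-binding transcription activator gene of 802 kb, held most: 13 regions with folds of 2.83 to 8.66 in BMH-21 1 and 3.06 to 9.11 in BMH-21 2. It also held 44 mock-only regions among its 136 distal ones. Cdh13, which encodes T-cadherin, held 11 in 1185 kb, at 4.58 to 13.4 and 3.71 to 12.4, beside 6 mock-only ones. BMH-21-only regions thus outnumbered mock-only ones in Cdh13 and were fewer in Camta1. Tmem132b held 9 in 260 kb (24 distal regions, 5 mock-only). Cdh23, a cadherin of hair cell tip links, held 7 among 65, and the zinc finger gene Tshz2 held 7 among 36.

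Skap1, a T cell adaptor gene, held 6 among only 12 distal regions, at 4.58 to 9.53 and 4.42 to 10.6, with 2 mock-only regions and 0 in all 4 lists. The atypical cadherin gene Fat1 held 5 of 9 with 1 mock-only, and Zmynd8 5 of 14 with 5 mock-only. Eml1, a microtubule-associated protein gene, held 6 of 28, and Rbfox3, the neuronal splicing factor gene, 6 of 83 with 36 mock-only. The ratio of BMH-21-only to mock-only regions therefore differed widely among these 10 genes. They were chosen for holding the most BMH-21-only regions, so high counts follow from the choice. Over all autosomal protein-coding genes 3.22% of the distal regions inside were BMH-21-only. Of all distal autosomal regions 38.2% were mock-only. Per length, Rph3a was densest with 4 in 69.6 kb (57.5 per Mb, beside 2.02 over all genes). High densities were also found in Zmynd8 (43.5), Fat1 (42.0) and Cacna2d2 (38.6), chosen by the same ranking.

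Long genes were nearest to a region more often, but did not hold more per length. Of genes under 10 kb 6.39% were nearest to at least 1, of those of 10 to 50 kb 14.0%, of those of 50 to 200 kb 26.0%, and of the 945 genes of 200 kb or more 43.3%. Regions inside numbered 2.34, 2.79, 2.19 and 1.45 per Mb in the same order. As a share of the distal regions inside genes, they were 2.98, 2.90, 3.03 and 4.05%.

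The lists for pachytene spermatocytes and for the nucleolus each had 1 gene nearest to a region. Of 14 pachytene genes 1 was nearest to a region: Piwil1, which acts in the piRNA pathway, with 3, the strongest of them 54.4 kb away with folds of 6.78 and 5.28. Of 24 autosomal genes of RNA polymerase I and the nucleolus, the machinery BMH-21 acts on, only Polr1d was listed, through a region 21.2 kb away (5.31 and 5.85). The shares, 7.14% and 4.17%, stand beside 14.8% of all genes, and for so few genes these are counts, not tests.

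Of 12 spermatogonial genes 7 were listed (58.3%, beside 14.8% of all genes), with no test of the difference. Their median length was 36.5 kb against 17.5 kb over all genes. Listing rose with gene length, and 14.0% of all genes of 10 to 50 kb and 26.0% of those of 50 to 200 kb were listed. Inside the spermatogonial genes 7.41% of 54 distal regions were BMH-21-only, 4 regions in all, beside 3.22% in all genes. The region by Uchl1, a ubiquitin hydrolase marking spermatogonia, stood 2.97 kb from the gene at chr5:66689807-66690592, with folds of 11.6 and 12.0. Zbtb16, a stem cell transcription factor gene, had 2 regions, the stronger inside the gene at 5.72 and 5.22. The others were Ccnd2, Etv5, Gfra1, Id4 and Ret. Peaks at the ends of spermatogonial genes were fewer in the BMH-21 lists than in the mock lists, as given above.

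Somatic and spermatid markers gave 4 of 10 Sertoli genes (Sox9 with 2 regions, Kitl, Sox8 and Wt1), 2 of 10 Leydig and peritubular genes (Cyp11a1 and Lhcgr), 1 of 12 round spermatid genes (Catsper1) and 1 of 10 leukocyte genes (C1qa), beside 14.8% of all genes. The part of these cell types in the regions was not tested. Stress genes stood near the share of all genes. Of 19 autosomal p53 targets 2 were listed (10.5%), Ddit4 with 2 regions and Plk2, and of 25 immediate early and heat shock genes 4 were (16.0%), among them Dusp1, a MAP kinase phosphatase gene, with a region 2.41 kb away at 4.33 and 5.54, and Ier2 with one 1.36 kb away at 6.03 and 6.13. Myc, the growth-promoting transcription factor gene, had its region 129 kb away. Of 19 chromatin and DNA damage genes 3 were listed: the damage kinase gene Atm (5.13 and 6.26, inside the gene), Tdp1 and Top1.

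Long synaptic and adhesion genes were nearest to a region in 25 of 45 cases (55.6%), at a median length of 1140 kb, beside 43.3% of all genes of 200 kb or more. Of the 724 distal regions inside them 6.77% were BMH-21-only, beside 4.05% in all genes of 200 kb or more and 3.22% in all genes. Per length they held fewer: 0.858 BMH-21-only regions per Mb, beside 1.45 in all genes of 200 kb or more and 2.02 in all genes. Listing rose with gene length, and the class of 200 kb or more was not matched to a median of 1140 kb. Cdh13 alone held 11 of the 49 BMH-21-only regions inside these genes, and 50 of the 724 distal ones. Galntl6, a glycosyltransferase gene, held a region with folds of 12.9 and 14.0. Ctnna3, an alpha-catenin gene, was nearest to one that lay 35.3 kb outside it, at 10.6 and 9.97.

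Cadherin and protocadherin genes, which mediate adhesion between cells, gave 17 of 33 (51.5%) and 44 regions, of which Cdh13 accounted for 12 and Cdh23 and Cdh26 for 6 each. Their median length was 123 kb, and 26.0% of all genes of 50 to 200 kb were listed. Inside them 9.70% of 330 distal regions were BMH-21-only, beside 3.03% in all genes of that length and 4.05% in those of 200 kb or more. Cdh13, of 1185 kb, held 11 of the 32 BMH-21-only regions inside them. It was also counted among the long synaptic and adhesion genes, so the lists overlap. Glutamate receptor genes, of 279 kb at the median, gave 10 of 26 (38.5%, beside 43.3% of all genes of 200 kb or more), and 3.56% of their 225 distal regions were BMH-21-only, beside 4.05%. They were led by Grik3 with 5 regions, the strongest at 12.2 and 11.9. Potassium channel genes, of 36.2 kb at the median, gave 20 of 91 (22.0%, beside 14.0% of all genes of 10 to 50 kb), and 5.26% of their 532 distal regions were BMH-21-only, beside 2.90%. Among them Kcnj6 had 5 regions nearest to it and Kcnq1 had 4. Both are longer, 253 and 320 kb, and held 3 and 4 of the 28 regions inside potassium channel genes. The share in all genes of 200 kb or more was 4.05%. Of 388 Zfp zinc finger genes 36 were listed (9.28%), beside 14.0% of all genes of 10 to 50 kb, where their median length fell. Of the 811 distal regions inside Zfp genes 2.84% were BMH-21-only, beside 2.90% in all genes of that length. Zfp516 alone had 11 regions nearest to it, but it held 3 inside, and the strongest lay 447 kb away. Among 1104 olfactory receptor genes 7 were listed, each with 1 region, which is 0.634% beside 6.39% of all genes under 10 kb. Such genes are about 1 kb long and lie in dense clusters, and they held 14 distal regions of any kind.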

How the data were processed

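The authors deposited 1 narrowPeak list per ATAC-seq library in mm10 coordinates. The submitters' processing notes name fastp, Bowtie2, MACS2 2.1.0, bedtools and deepTools, and both mm39 and mm10; peak-calling parameters are not given in the sources used here. Gene ends of a GRCm38 annotation met a peak in 70.1, 70.7, 61.0 and 61.5% of protein-coding genes in mock 1, mock 2, BMH-21 1 and BMH-21 2, and after a 50 kb shift in 28.9, 29.9, 14.9 and 15.5%. In the deposited files each peak has an integer display score (not used), a fold of pileup over background (a ratio), a −log10 p, a −log10 q and a summit offset. These are the authors' own values and serve only to describe or rank peaks. The smallest deposited −log10 q per list was 2.01 to 2.09.

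Peaks were merged at an overlap of at least 1 bp (Python 3.11.15, pandas 2.3.3, numpy 2.4.6, SciPy 1.17.1, matplotlib 3.10.9). Summit fragments were found as the whole number whose Poisson tail over the background gives the deposited −log10 p, within 0.0008. The background followed from taking fold as (fragments + 1) / (background + 1). Both procedures were tested on simulated data. Merging gave the right class totals over 100328 simulated regions, which were set well apart, so peaks lying close together were not tested. Pileups were recovered in 100% of 1951 simulated peaks, whose backgrounds were lower than the highest found in the lists. Total reads per library are not in the lists, so depth was read only from the background of 4.11 to 4.54 fragments. Genes and their kinds came from RefSeq annotation GRCm38.p6 (49943 genes, used without strand), as did the promoter and miRNA tables. Intervals are exact Clopper-Pearson at 95%, counting error only.

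The regions, gene lists and tests were chosen with earlier results of these data known. Named were the 10 strongest and 3 widest regions, those nearest the 1 kb limit, the 5 largest runs, the 10 genes holding most and 5 densest genes with at least 4, and up to 3 genes per list by number of regions; other names were added after values were seen. Sequence around summits was not used here, as no genome of this build was at hand. Alternatives changed the peak threshold, list length, overlap, distance, absence rule and libraries. A few genes that the rule would name are not reported here.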

Additional observations from a re-analysis of the deposited data

How the results depend on the processing

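The direction of each comparison held in the main setting and the 15 alternatives: BMH-21-only regions were inside genes less often than regions of all lists used (52.0 to 59.8% against 64.2 to 74.0%), narrower, and followed by another BMH-21-only region more often than their share. The widths here are of merged regions, which grow with the number of lists that enter them. The direction for width was therefore partly set by the rule. With summit windows every peak had the same width, so that comparison shows only merging. Peak widths within 1 list were compared in the main setting only. The sizes moved, and the cause was not tested. The count of regions was 7060 with lists of equal length, 2217 at 10 kb from gene ends, and 5067 to 8665 without 1 library. The share of regions held by both BMH-21 lists was 32.4% at −log10 q of at least 5 in all lists, 50.8% with equal lists, 39.6% with 100 bp either side of the summit, 42.1% when peaks had to cover 50% of a region, 28.4, 33.1 and 35.7% at 500 bp, 2.5 kb and 10 kb, 29.9% with protein-coding ends only, 24.3% with no mock peak within 1 kb, 33.5% also 1 kb from RefSeq starts (chosen after seeing the data), and 35.3 to 39.9% without 1 library. The share inside genes was 59.0% with summit windows, 52.3% at 10 kb, 52.0% with no mock peak within 1 kb and 54.4 to 59.8% without 1 library. The median width was 347 bp at −log10 q of at least 5 in all lists, 342 bp with that asked of BMH-21 only, 379 bp with equal lists, 216 bp with summit windows, 373 bp with the cover rule, 346 and 343 bp at 2.5 and 10 kb, 351 bp with protein-coding ends only and with no mock peak within 1 kb, and 261 to 356 bp without 1 library. The share followed by another such region was 20.4% with equal lists, 7.49% with summit windows and 10.4 to 14.7% without 1 library.

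The difference in distal autosomal peaks per library stayed negative in every alternative run, from -25414 at 10 kb from gene ends to -53952 at 500 bp, and from -47270.5 to -53687.5 without 1 library. With a replicate block it was -50479, exact permutation p = 0.5, the smallest that 2 pairs allow; the numbers were not shown to pair libraries (r = -0.000551 over 8323 regions of all lists). The peak lists hold no signal outside peaks, so a region missing from mock may lie just under the calling threshold there.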

Other observations

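The sex chromosomes, which the autosomal rule leaves out, gave other proportions. On chromosome X 1266 of 10212 distal regions held by both BMH-21 lists were absent from mock, 12.4% (11.8 to 13.1%), and on chromosome Y 52 of 141 were, 36.9% (28.9 to 45.4%). BMH-21-only regions on X had a median width of 374 bp against 553 bp for regions of all 4 lists, and 26.8% and 26.4% of them lay inside a gene. On Y the widths were 413.5 and 596 bp, and 44.2% and 36.5% lay inside a gene. On the autosomes the corresponding shares were 54.4% and 69.8%; the differences between the sex chromosomes and the autosomes were not tested. Chromosome X is transcriptionally silenced in the sex body at this stage.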
